A study of Mus musculus with 4 samples.

Results

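Hox genes encode homeodomain transcription factors that lie in the 4 clusters Hoxa, Hoxb, Hoxc and Hoxd and carry a paralog number from 1 at the anterior end of a cluster to 13 at its posterior end. A gene was taken as a member when its symbol in the deposited table was a cluster letter and a paralog number, with antisense and opposite-strand transcripts left out. This gave 39 genes of 49671 in the table, 11 in Hoxa, 10 in Hoxb, 9 in Hoxc and 9 in Hoxd. Their RNA was measured in basal cells, which line the outside of the prostate epithelium and express p63, sorted from the ventral prostate of male mice. The tip group comprised 2 libraries from the tips of the gland and the duct group 2 libraries from its ducts. Lobes were chopped to part tips from ducts, and how the mice were shared among the libraries is not stated. The labels name no genotype, strain or treatment for either group. The design text gives 20 mice in all and a sort that discarded CD45+, CD31+ and CD140a+ cells and kept cells high for EpCAM and CD49f. Mice were aged postnatal days 10 to 12 by the age field and day 13 by the titles. Titles set the groups here, since all 4 libraries are called tip in the cell type field. Nothing in the labels ties the libraries of a group to different mice, and the spread behind each p-value may thus be technical.

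During development Hox genes are used in an order along the body axis that follows their order in the cluster, so that genes with low paralog numbers act toward the head and genes with high numbers toward the tail. The urogenital sinus, from which the prostate buds, lies in the posterior domain. Hoxa13, Hoxd13 and Hoxa10 are known to act in the growth and branching of the male accessory glands, and Hoxb13 in the differentiation of the ventral prostate epithelium. Several of these genes are also known to be expressed in urogenital mesenchyme. Hox proteins bind DNA together with cofactors of the TALE class (Pbx, Meis and Pknox), and their clusters are kept silent or active by Polycomb and Trithorax proteins.

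The libraries were shallow, with 1439004 to 1742531 reads each, so that 1 read was worth 0.574 to 0.695 CPM (the unit of expression here, reads scaled to a common library total) and a count of 0 allowed up to 1.72 to 2.08 CPM (3 reads). All 39 Hox genes together had 1417 reads. Intervals and floors below cover counting error only. Markers of other cells differed within groups. The summed level of 20 fibroblast markers was 7547 and 14235 CPM in tip 1 and tip 2 and 3597 and 24645 CPM in duct 1 and duct 2. Basal markers (12 of 12 in the table) summed to 10364, 10052, 15259 and 6292 CPM in the same order and luminal markers (11 in the table) to 1439, 1480, 2347 and 1140 CPM. No fibroblast, basal or luminal marker in the table was listed at 0 in all 4 libraries. Of 13 markers of the seminal vesicle and urothelium, 6 were listed at 0 in all 4. Among them were the seminal vesicle genes Svs1, Svs2 and Pate4, and all 13 markers summed to 7.35 to 37.4 CPM. The 10 pancreatic islet markers summed to 5.60, 6.90, 7.70 and 349 CPM. Of these, Ins1, Ins2 and Iapp measured 56.7, 204.9 and 67.2 CPM in duct 2 and were listed at 0 in the other libraries. In bulk samples, fewer cells of a type and less RNA per cell cannot be told apart.

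The 4 start regions are printed first, because they belong to the highest Hox gene (Hoxd13), to members of the same posterior class (Hoxa13 and Hoxa10) and to a gene without a read at the other end of the cluster that holds Hoxd13 (Hoxd1). Each is the 250 bases upstream of a RefSeq start (build GRCm38.p6), 5′ to 3′ on the gene's strand, and capitals mark CpG dinucleotides. The windows are, in the order printed, chr2:74667975-74668224 (plus strand), chr6:52260881-52261130 (minus strand), chr6:52234940-52235189 (minus strand, the inner of the pair of Hoxa10 starts) and chr2:74762730-74762979 (plus strand). None of them overlaps a GENCODE M21 exon except that of Hoxd1, which lies over an exon of the noncoding gene Haglr.
Hoxd13: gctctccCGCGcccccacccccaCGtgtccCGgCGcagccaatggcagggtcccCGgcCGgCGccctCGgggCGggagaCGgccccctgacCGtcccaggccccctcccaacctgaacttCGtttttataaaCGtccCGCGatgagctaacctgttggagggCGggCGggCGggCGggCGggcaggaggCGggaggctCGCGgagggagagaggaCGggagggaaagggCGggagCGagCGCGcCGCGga
Hoxa13: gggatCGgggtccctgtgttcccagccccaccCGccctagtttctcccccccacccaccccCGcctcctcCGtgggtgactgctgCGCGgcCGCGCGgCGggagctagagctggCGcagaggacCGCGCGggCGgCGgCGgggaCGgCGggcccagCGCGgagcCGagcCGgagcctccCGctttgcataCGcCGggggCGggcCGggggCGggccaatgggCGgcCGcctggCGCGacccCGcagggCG
Hoxa10: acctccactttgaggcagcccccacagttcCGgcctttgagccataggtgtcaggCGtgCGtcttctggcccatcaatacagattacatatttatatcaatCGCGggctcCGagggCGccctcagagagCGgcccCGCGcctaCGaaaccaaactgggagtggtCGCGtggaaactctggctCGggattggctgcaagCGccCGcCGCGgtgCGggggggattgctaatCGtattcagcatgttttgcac
Hoxd1: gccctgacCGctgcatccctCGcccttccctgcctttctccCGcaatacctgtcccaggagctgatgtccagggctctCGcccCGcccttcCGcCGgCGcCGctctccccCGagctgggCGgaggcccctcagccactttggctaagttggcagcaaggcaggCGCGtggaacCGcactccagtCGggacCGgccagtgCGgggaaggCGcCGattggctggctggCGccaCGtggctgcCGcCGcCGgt
The windows hold 31, 35, 20 and 24 CpG dinucleotides in that order. The Hoxd1 window, whose gene had no read in any library, was thus within the range of the windows of the expressed genes. RefSeq windows were matched for 22 of the 39 members (24 windows). Their CpG count had a median of 12.5, against 6.0 over all 32851 mouse windows of this length, and ran from 2 to 35. The observed-to-expected CpG ratio was above 0.6 in 13 of the 24 windows (54.2%) and in 33.95% of all windows. On either strand, the letters TATAAA were found in 4 of the 24 windows, those of Hoxd13, Hoxa10, Hoxb8 and Hoxd4, and in 12.4% of all windows. TGATTNAT, a form of the joint site of Hox and Pbx proteins, was found in 2 of 24 windows (2.82% of all windows), and TTTATNG, a form of the site of posterior Hox proteins, in 2 of 24 (9.81% of all). TTTATNG shares letters with TATAAA read on the other strand, so their matches can overlap. A match is a description of the letters in this window.

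Expression was concentrated at the posterior end of the Hoxa, Hoxb and Hoxd clusters. The 16 genes with paralog numbers 9 to 13 held 82.6% of all Hox reads, the 11 genes numbered 5 to 8 held 13.1% and the 12 genes numbered 1 to 4 held 4.23%. Within single libraries, the share of the genes numbered 9 to 13 ran from 80.8% in tip 1 to 85.1% in duct 2. The Hoxd cluster gave 48.9% of the reads, Hoxa 31.6%, Hoxb 17.9% and Hoxc 1.62%. Altogether 9 members averaged 5 CPM or more, and 8 of these carry the numbers 9 to 13, Hoxd8 being the exception.

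**Figure D1:**
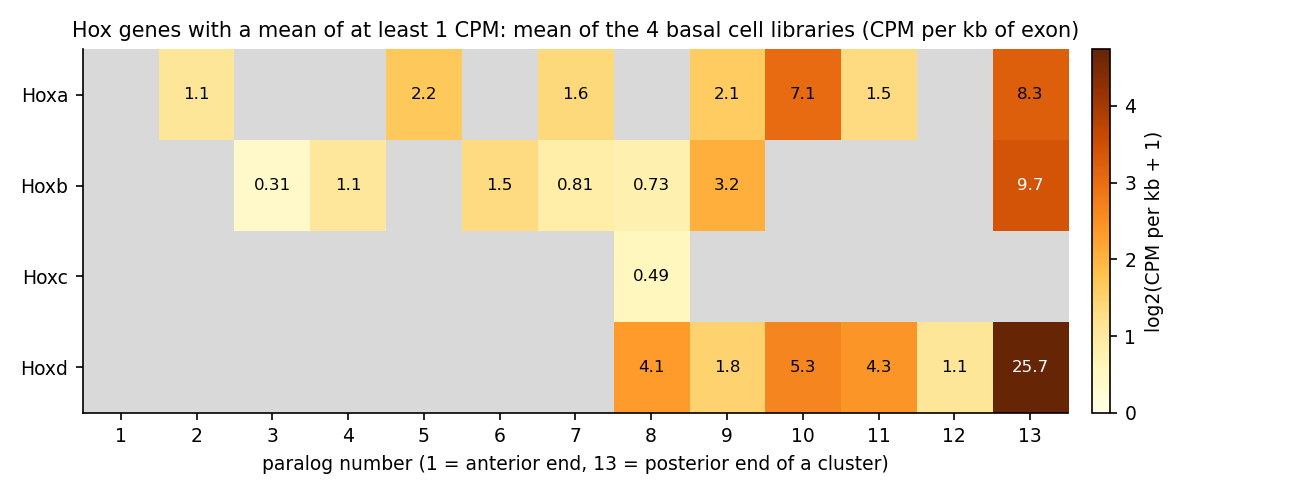
Mean level over the 4 libraries of the 21 Hox genes averaging 1 CPM or more, in CPM per kb of exon (GENCODE M21), with clusters as rows and paralog numbers as columns; colour gives log2(CPM per kb + 1) and grey cells are positions with no gene or with a gene below that mean. Hoxd13 stands highest at 25.7 CPM per kb, and the 1 Hoxc gene shown, Hoxc8, at 0.49 CPM per kb.

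Per length, Hoxd13 was the highest Hox gene in each of the 4 libraries, with 24.9 to 26.8 CPM per kb of exon. Hoxb13 (mean 9.72 CPM per kb, range 3.29 to 22.1), Hoxa13 (8.33, range 3.88 to 14.1) and Hoxa10 (7.13, range 3.52 to 11.1) followed, and their ranges over the libraries overlapped. Hoxd10 (5.33 CPM per kb), Hoxd11 (4.33) and Hoxd8 (4.05) came next, also with overlapping ranges. The order of Hoxd13 over these genes held in every library, whereas Hoxb13 had rank 2 in tip 1, tip 2 and duct 1 and rank 4 in duct 2. Exon lengths are those of all annotated transcripts merged, which lowers genes with many isoforms. Hoxa9, with 5580 merged exon bases, is such a gene.

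The Hoxc cluster (chromosome 15) was nearly without reads. Its 9 genes had 23 reads in all, of which tip 1 held 13, duct 1 held 8 and the other libraries 1 each, and Hoxc12 and Hoxc13 had none. Hoxc8, with 4.20, 0, 1.3 and 0 CPM in tip 1, tip 2, duct 1 and duct 2, was the 1 Hoxc gene above a mean of 1 CPM. Hoxc6 had 4 reads, all in tip 1, and Hoxc4 had 3, all in duct 1. The Hoxc reads lay mostly in tip 1 and duct 1, the library of each group with the lower fibroblast marker sum (7547 and 3597 CPM). The part of either in the other was not tested.

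At the anterior end the counts were also low. Hoxd1 and Hoxd3, besides the Hoxc pair, had no read in any library, and Hoxa3, Hoxb1 and Hoxb2 had 1 to 5 reads each. A count of 0 allows levels of up to 1.72 to 2.08 CPM, depending on the library. Hoxd3 shares 62.3% of its exon bases with same-strand models (Hoxd4 and the predicted gene Gm28230) and Hoxd4 52.3%, and how reads in shared exons were assigned is not given in the sources used here. Hoxb3, whose reads were mostly in duct 2, measured 1.40 and 0 CPM at the tips, against 0.65 and 3.3 CPM in the ducts, and the groups overlapped. Opposite-strand exons of Hoxb3os cover 52.9% of its exon bases. Hoxb3os itself was listed at 0 in all 4 libraries. The strand setting is not given, so how reads in the bases shared by both were counted is not known. Their part in the Hoxb3 values was not tested.

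The comparison of tip with duct sets cells sorted as basal from the gland's ends against those from its ducts. The summed fibroblast markers stood above the summed basal markers in tip 2 (14235 and 10052 CPM) and duct 2 (24645 and 6292 CPM). The share of basal cells in each library was not tested. For most expressed Hox genes the tip libraries had the higher levels. Summed over all 39 genes, the level was 326 and 246 CPM in tip 1 and tip 2 and 167 and 173 CPM in duct 1 and duct 2. Both tip libraries were above both duct libraries for the Hoxa sum (116 and 78.3 against 37.9 and 57.5 CPM), the Hoxb sum (76.6 and 41.6 against 22.5 and 23.9 CPM) and the Hoxd sum (125 and 125 against 102 and 90.4 CPM). The ratio of tip to duct reads, corrected for depth, was 2.01 for Hoxa (95% exact interval 1.64 to 2.46), 2.49 for Hoxb (1.88 to 3.32) and 1.3 for Hoxd (1.12 to 1.52). These and later read ratios are corrected for total reads only and were not computed with other scalings. At this scaling the median log2 fold of all genes tested was itself 0.20 toward tip, which matters most for the small Hoxd ratio. Hoxd13 alone held 399 of the 693 Hoxd reads, with a read ratio of 0.98 (0.81 to 1.20). Hoxd8 to Hoxd11 had read ratios from 1.60 to 2.13, so the cluster ratio does not stand for each Hoxd gene. The Hoxc sum did not separate the groups, with 9.10 and 0.60 against 5.20 and 0.70 CPM.

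**Figure D2:**
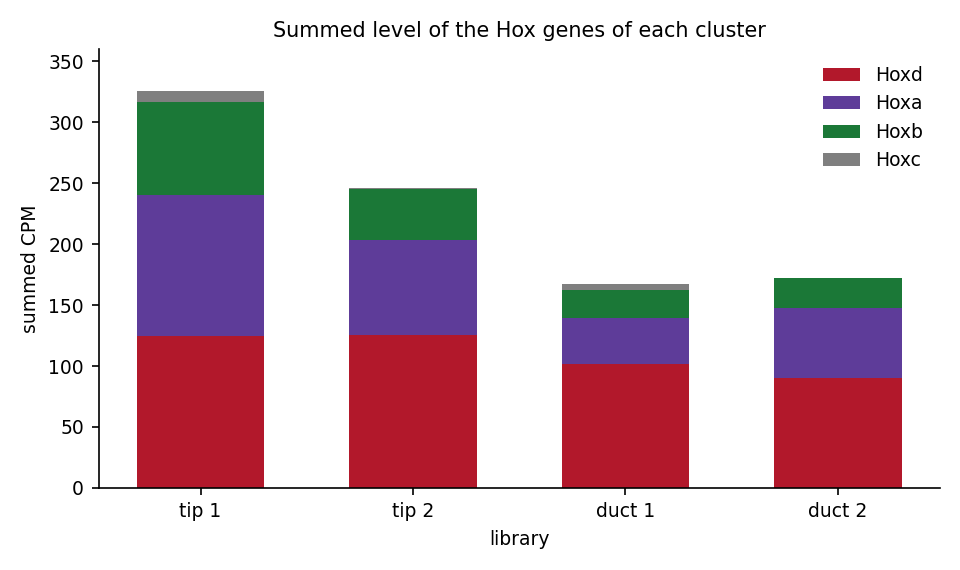
Summed CPM of the Hox genes of each cluster (stacked colours) in the 4 libraries. The bars reach 326 and 246 CPM at the tips, against 167 and 173 CPM in the ducts. The Hoxd part has the smallest read ratio of tip to duct, 1.3, corrected for total reads only. Hoxd13, with a read ratio of 0.98, holds 399 of the 693 Hoxd reads.

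Of the 39 genes, 21 reached the mean of 1 CPM that entered the test, and 4 of these did so through 1 group only (Hoxb3, Hoxb7, Hoxb8 and Hoxc8). Of the 21, 15 had both tip values above both duct values, 0 had both below, and 6 overlapped. The 15 include Hoxb7 and Hoxb8, which entered through tip alone, so the filter itself favoured their direction. Over all 17865 genes tested, both tip values were above both duct values for 28.5% and below them for 11.1%. The median log2 fold, tip minus duct on the log2(CPM + 1) scale, was 0.82 for the 21 Hox genes and 0.20 for all genes tested. No Hox gene passed limma's test at an adjusted p of 0.05, the smallest adjusted p being 0.667, and neither did any other gene (0.0% of genes tested). At an unadjusted p under 0.05, limma counted 5 Hox genes, all higher in tip, beside 7.42% of genes tested (5.82% higher in tip and 1.61% lower). Hoxb7, which entered through tip alone, is among the 5. edgeR's quasi-likelihood test and DESeq2 on the recovered reads also called 0 Hox genes (0.0% and 0.0112% of genes tested), with 2 and 1 at an unadjusted p under 0.05 (5.86% and 2.33% of genes tested). With 2 libraries a group, the smallest 2-sided p of an exact permutation test is 0.333. Among the 9 Hox genes averaging 5 CPM or more, 8 had both tip values above both duct values, against 32.6% of all genes at that level. Leaving out duct 1 gave 2 calls among the Hox genes, Hoxa7 and Hoxb13 (3.77% of genes tested were then called), and leaving out duct 2 gave 0 (5.06%). The number of Hox genes higher in tip without overlap was 17 without tip 1 (38.3% of genes tested), 16 without tip 2 (47.2%), 16 without duct 1 (48.1%) and 18 without duct 2 (45.8%). The number lower in tip without overlap was 1, 0, 3 and 0 in the same order (23.3%, 20.3%, 25.7% and 28.3% of genes tested). Leaving out a library can only keep or raise both numbers, so they do not test the counts from all 4 libraries.

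At the deposited scaling the median gene tested stood at 0.20, and other scalings moved it. With TMM factors (trimmed mean of M values, edgeR's default) the median gene stood at 0.03 and the median Hox gene at 0.71, and 12 of the 21 were higher in both tip libraries against 20.4% of all genes. Median-ratio factors gave a median of -0.0068 for all genes and 0.69 for the Hox genes, with 12 higher against 19.0%. Scaling to a total that leaves out mitochondrially encoded genes and the 10 highest genes gave 14 higher against 25.8%. The same 12 genes were higher in both tip libraries under all 4 scalings: Hoxa2, Hoxa7, Hoxa9, Hoxa10, Hoxa11, Hoxb7, Hoxb8, Hoxb9, Hoxb13, Hoxd9, Hoxd10 and Hoxd11. Hoxb7 and Hoxb8 among them had passed the filter through tip alone. Under TMM and median-ratio scaling Hoxd13 became lower in both tip libraries, 1 of the 21 beside 18.0% and 19.4% of all genes.

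**Figure D3:**
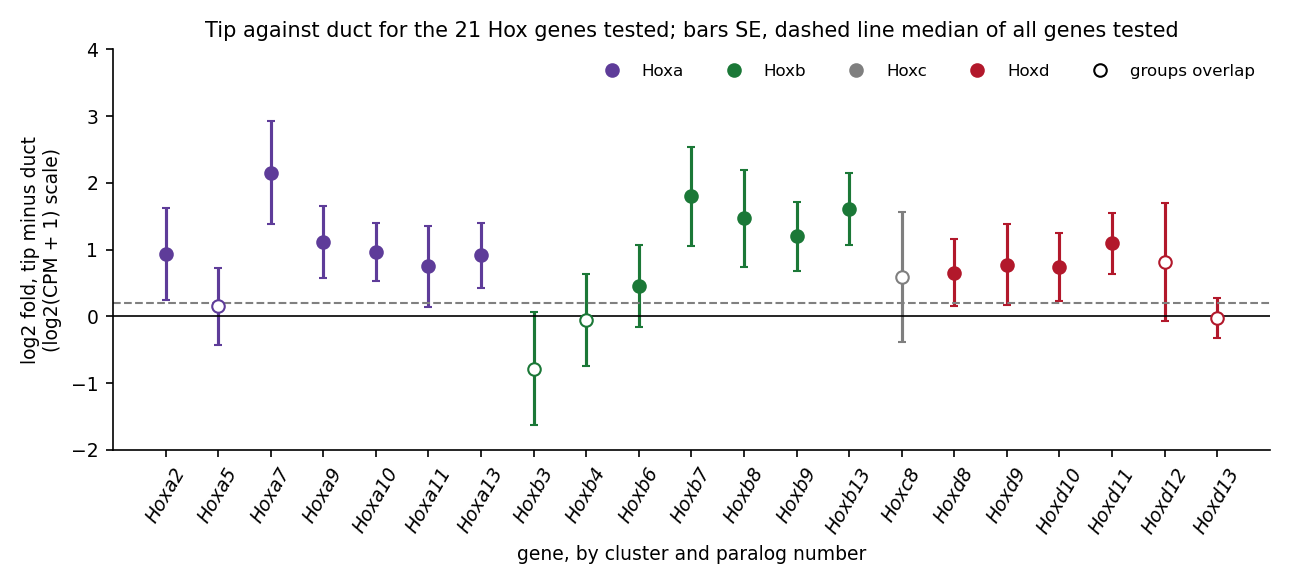
Log2 fold of tip minus duct, on the log2(CPM + 1) scale, for the 21 Hox genes tested, by cluster and paralog number; bars are standard errors, open points have overlapping groups and the dashed line is the median of all genes tested (0.20). Of the 21 points 18 lie above 0, Hoxb3 is lowest and Hoxd13 lies at -0.02.

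Hoxd13, which patterns the urogenital tract and the digits, had close levels in all 4 libraries as scaled. It measured 63.95 and 62.6 CPM in tip 1 and tip 2 and 61.9 and 66.5 CPM in duct 1 and duct 2, resting on 92 to 109 reads a library. The groups overlapped, and the log2 fold was -0.02 ± 0.30 (SE) with a 95% interval of -0.70 to 0.66, which leaves room for a difference in either direction. With TMM factors both tip values fall below both duct values. Hoxd13 lies on chromosome 2 at 74668310 to 74671599 (GRCm38, plus strand), and no other annotated exon overlaps it.

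**Figure D4:**
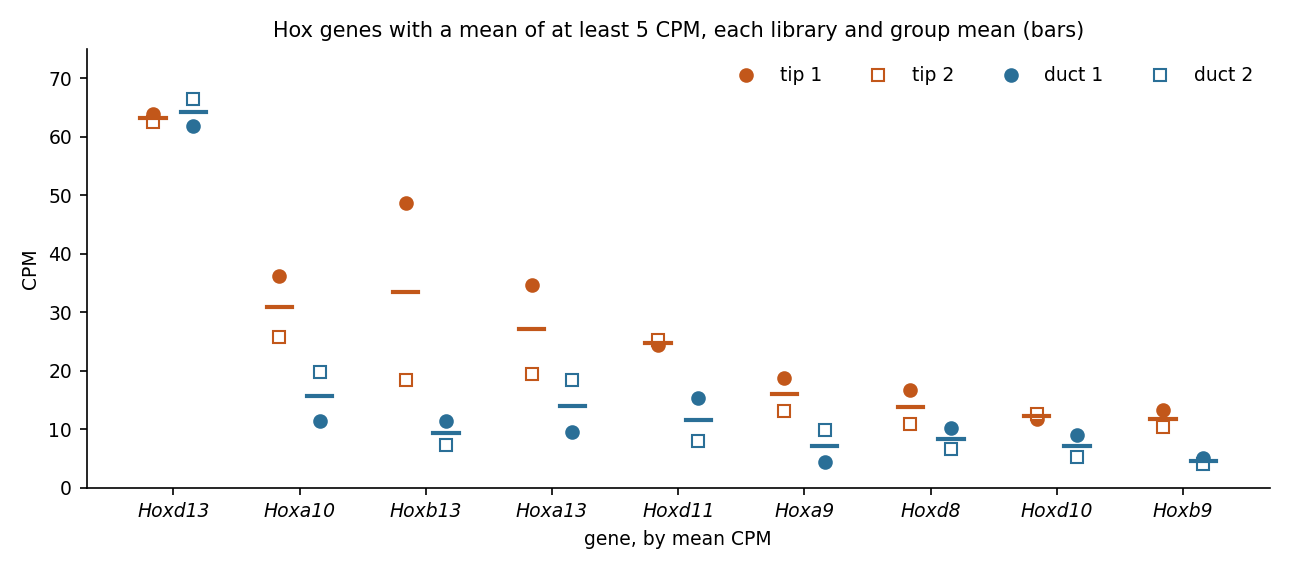
CPM of the 9 Hox genes averaging 5 CPM or more in each library (filled circles, replicate 1, and open squares, replicate 2), with the group mean as a bar. Hoxd13 lies between 61.9 and 66.5 CPM in all 4 libraries, and for the other 8 genes both tip libraries lie above both duct libraries at the deposited scaling (not for Hoxa13 and Hoxd8 with TMM).

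Hoxb13, the posterior gene of the Hoxb cluster, had the smallest unadjusted p among the members. The tip libraries held 48.6 and 18.4 CPM and the duct libraries 11.5 and 7.25 CPM. Tip 1 stood apart, with 2.65 times the level of tip 2 (95% exact interval of the reads 1.72 to 4.16), and the lowest tip value was above the highest duct value. The mean was 33.5 ± 21.4 CPM at the tips, against 9.38 ± 3.01 CPM in the ducts (SD, n = 2 each), with a log2 fold of 1.61 ± 0.54 (SE). Its limma adjusted p was 0.667. Leaving out tip 1 lowered the log2 fold to 0.93 (limma adjusted p 0.999), and leaving out duct 1 gave 1.91 (0.0269). The summed luminal markers, 1439 and 1480 against 2347 and 1140 CPM, did not follow that order. Hoxb13 lies on chromosome 11 at 96194316 to 96197447 (plus strand).

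Hoxb9, at the posterior end of the continuous part of the cluster, measured 13.2 and 10.3 CPM at the tips, against 5.15 and 4.0 CPM in the ducts. Its groups did not overlap, with a log2 fold of 1.20 ± 0.52 (SE) and a ratio of tip to duct reads of 2.56 (95% exact interval 1.35 to 5.13). Both Hoxb genes numbered 9 or higher were thus highest in tip 1 and lowest in duct 2. Their summed read ratio of tip to duct was 3.14 (2.21 to 4.52).

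All 4 posterior Hoxa genes had both tip values above both duct values at the deposited scaling. Hoxa10, known for its part in uterine and accessory gland patterning, measured 36.1 and 25.9 CPM at the tips, against 11.5 and 19.8 CPM in the ducts, a log2 fold of 0.97 ± 0.44 (SE). Hoxa13, the most posterior gene of the cluster, measured 34.8 and 19.6 CPM at the tips, against 9.60 and 18.5 CPM in the ducts. Tip 2 and duct 2 were close for Hoxa13, and under TMM scaling its groups overlapped. Hoxa9 measured 18.8 and 13.2 CPM at the tips, against 4.50 and 9.90 CPM in the ducts. Hoxa11 measured 3.50 and 5.75 CPM at the tips, against 1.95 and 2.65 CPM in the ducts, and opposite-strand exons of Hoxa11os cover 35.0% of its exon bases. For these 4 genes together the ratio of tip to duct reads was 1.99 (95% exact interval 1.59 to 2.49).

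The posterior Hoxa genes also differed between the duct libraries. Their summed level was 27.5 CPM in duct 1 and 50.8 CPM in duct 2, a read ratio of 1.85 (95% exact interval 1.26 to 2.75), and all 4 genes were higher in duct 2. The share of all genes higher in duct 2 is not given here. Over all genes the duct libraries differed by more than sampling noise (chi-square over its degrees of freedom 20.8), which the interval does not cover. The corresponding Hoxd genes gave 90.0 and 83.8 CPM (0.93, 0.73 to 1.19) and the Hoxb genes 16.6 and 11.2 CPM (0.68, 0.34 to 1.29). Beside this, the summed fibroblast markers were 6.85 times as high in duct 2 as in duct 1 and the basal markers 0.41 times as high. Between the tips, fibroblast markers were 1.89 times as high in tip 2 as in tip 1, whereas the posterior Hoxa genes were 1.45 times as high in tip 1 as in tip 2 (1.12 to 1.88). The part of other cells in the Hox values was not tested.

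In the Hoxd cluster, Hoxd8 to Hoxd11 had both tip values above both duct values at the deposited scaling. Hoxd11, which with its paralogs patterns kidney and limb, measured 24.4 and 25.3 CPM at the tips, against 15.3 and 7.95 CPM in the ducts, with a log2 fold of 1.09 ± 0.46 (SE) and an interval of 0.05 to 2.13. Its tip libraries lay close together, at 24.8 ± 0.672 CPM (SD, n = 2), and the spread lay in the ducts. The predicted same-strand model Gm28309 overlaps 10.8% of its exon bases.

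Hoxd10 measured 11.8 and 12.7 CPM at the tips, against 8.95 and 5.30 CPM in the ducts, and Hoxd8 16.7 and 10.9 CPM at the tips, against 10.2 and 6.60 CPM in the ducts. Hoxd9 measured 6.30 and 4.05 CPM at the tips, against 3.2 and 2.00 CPM in the ducts. The groups did not overlap for any of the 3, but under TMM scaling those of Hoxd8 did. Hoxd12 was uneven, with 0.70 and 8.05 CPM at the tips, against 0.65 and 2.00 CPM in the ducts, so that 14 of its 19 reads came from tip 2. Hoxd4 had 1, 3, 2 and 0 reads.

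Set against Hoxd13 within each library, the other genes can be compared without any scaling. For each read of Hoxd13, Hoxb13 had 0.76 and 0.29 reads in tip 1 and tip 2 and 0.19 and 0.11 in duct 1 and duct 2. Hoxa10 had 0.57 and 0.41 against 0.19 and 0.30, and Hoxd11 0.38 and 0.40 against 0.25 and 0.12. This ratio was higher in both tip libraries for the same 15 of the 20 other tested Hox genes whose CPM was, and for 29.5% of all genes tested. Hoxd13 was close in all 4 libraries at the deposited scaling, so this count nearly repeats the CPM count and is no separate support. With TMM factors Hoxd13 itself was lower in both tip libraries. A ratio of this kind shows that levels differed unequally, and not which gene differed.

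Hoxa7, in the middle of its cluster, measured 10.4 and 5.20 CPM at the tips, against 2.60 and 0 CPM in the ducts (15, 9, 4 and 0 reads), with a log2 fold of 2.15 ± 0.77 (SE). Opposite-strand exons of Hoxaas3 cover 20.4% of its exon bases, while Hoxaas3 measured 2.10, 1.75, 1.95 and 1.35 CPM. Its limma adjusted p was 0.667. Leaving out duct 2 lowered the log2 fold to 1.23 (limma adjusted p 0.411), and leaving out duct 1 gave 3.07 (0.0146).

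Hoxb7 was read only in tip, with 2.10 and 2.90 CPM (8 reads) against 0 reads in either duct library. The exact 95% interval of its read ratio of tip to duct has a lower limit of 1.66 and no upper limit. Hoxb8 measured 3.50 and 2.90 CPM at the tips, against 1.3 and 0 CPM in the ducts, and Hoxb6 4.20 and 2.90 against 1.95 and 2.65 CPM. Hoxb7 and Hoxb8 are among the genes that entered the test through tip alone. A higher tip level was thus part of their being tested, and the interval of Hoxb7 is no separate support for a difference. With TMM scaling the groups of Hoxb6 overlapped.

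Not every gene of the middle and anterior parts was higher in tip. Hoxa5, known for its part in lung and axial patterning, measured 4.20 and 4.60 CPM at the tips, against 4.50 and 3.3 CPM in the ducts. Hoxb4 measured 2.10 and 2.90 CPM at the tips, against 1.3 and 4.65 CPM in the ducts. Both overlapped, and each changed direction in alternatives (Hoxa5 -0.0096 with TMM, Hoxb4 0.60 without duct 2). Hoxa2 measured 4.20 and 1.75 CPM at the tips, against 1.3 and 0.70 CPM in the ducts, on 12 reads. The genes numbered 1 to 4 summed to 10.5 and 8.75 CPM at the tips, against 9.10 and 10.8 CPM in the ducts, a read ratio of 0.97 (0.56 to 1.67).

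The 18 genes below the mean of 1 CPM had 0 to 6 reads each, and the highest value of any of them in a library was 2.80 CPM. Just above that level stood Hoxb7 (mean 1.25 CPM) and just below it Hoxd4 (0.94 CPM). Among the 18, 2 genes did not overlap between groups. Hoxa4 had 1 and 2 reads in tip and 1 and 0 in duct, which in CPM was 0.70 and 1.15 against 0.65 and 0. Hoxc10 had 0 reads in tip and 2 and 1 in duct. Both lie at the level of single reads, and no difference was detectable at this depth.

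Among the TALE cofactors 8 of 9 were tested, 2 were higher and 1 lower at both tips, and 0 passed limma's test (0.0% of genes tested passed). Meis1 measured 89.0 and 78.0 CPM at the tips, against 40.9 and 53.4 CPM in the ducts, Pbx2 21.6 and 17.2 against 12.8 and 8.6 CPM, and Pknox1 42.4 and 49.95 against 66.3 and 73.2 CPM. Meis1 and Pbx2 were the pair with higher tip values, and Pknox1 the one with lower. Counts for this and the following lists are at the deposited scaling, where 28.5% of all genes tested had both tip values above both duct values and 11.1% below, and other scalings were not applied to them.

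Of 27 Polycomb genes, all tested, 11 were higher at both tips and 2 lower (median log2 fold 0.28), and of 18 Trithorax genes and H3K27 demethylases 8 were higher and 2 lower (0.14). None passed. Cbx6, a chromobox subunit of Polycomb complexes, measured 91.0 and 78.7 CPM at the tips, against 20.4 and 44.1 CPM in the ducts, and Phc3, another subunit, 185 and 146 against 88.7 and 113 CPM. Pcgf2 measured 43.8 and 39.05 against 27.4 and 25.1 CPM, and Kdm2b 52.9 and 42.5 against 37.6 and 21.8 CPM. The catalytic subunit Ezh2 overlapped at 45.2 and 43.6 against 48.5 and 41.5 CPM. Of the Trithorax list, the histone methyltransferase Setd1b measured 100.1 and 55.1 CPM at the tips, against 31.2 and 40.9 CPM in the ducts. Mllt3 measured 122 and 95.8 against 58.0 and 75.8 CPM, the demethylase Kdm6a 175 and 149 against 122 and 96.8 CPM, and Dpy30 11.8 and 12.7 against 8.95 and 3.3 CPM.

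Retinoic acid is a known upstream signal of Hox clusters. Of 18 genes of its receptors and enzymes 16 were tested, 7 were higher and 2 lower at both tips, and 0 passed (median log2 fold 0.44). The receptor Rxra measured 107 and 56.8 CPM at the tips, against 40.2 and 23.8 CPM in the ducts, and the enzyme Aldh1a1 129 and 98.8 against 67.6 and 48.8 CPM. Crabp2, a retinoic acid carrier, went the other way at 0.70 and 1.75 against 8.30 and 7.25 CPM. The Hox inducers Cdx1 and Cdx2 were listed at 0. Of the 10 genes in that list, which also holds the ParaHox, Evx and Gbx genes, 4 were tested, 1 was higher and 1 lower. Evx1, beside Hoxa13, measured 3.50 and 0.60 CPM at the tips, against 0 CPM in both ducts, and Gbx2 0 and 1.15 against 1.95 and 1.35 CPM. Evx1 entered the test through tip alone and Gbx2 through duct alone, so the filter itself favoured their directions.

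Other RNAs of the clusters were scarce. Of the 15 listed, 10 were in the table and summed to 4.55 to 11.9 CPM a library, and 4 were tested. Hoxd3os1 was the 1 that did not overlap (2.10 and 2.30 against 0.65 and 0.70 CPM), and Hotair was listed at 0. Hoxd3os1 entered the test through tip alone, so the filter itself favoured its direction. Of the genes that neighbour the clusters, 9 were tested, 5 were higher and 0 lower at both tips, and 0 passed (median log2 fold 0.60). They were Calcoco1 (68.2 and 53.4 against 31.2 and 37.5 CPM), Cbx5 (124 and 110 against 62.5 and 87.7 CPM), Atp5g2 (50.8 and 40.8 against 31.2 and 28.4 CPM), Mtx2 (17.4 and 18.9 against 13.4 and 10.6 CPM) and Hibadh (36.9 and 36.2 against 21.1 and 34.3 CPM). Calcoco1, Cbx5 and Atp5g2 lie beside the Hoxc cluster, which itself had 23 reads.

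Of 15 transcription factors of the prostate epithelium 13 were tested, 5 were higher and 0 lower at both tips, and 0 passed (median log2 fold 0.62). Grhl2 measured 147 and 88.4 CPM at the tips, against 63.2 and 33.0 CPM in the ducts, and Gata3 138 and 71.2 against 70.8 and 34.3 CPM. Tip 1 was the highest library for both, as it was for Hoxb13, Hoxa10 and Hoxa13. Among the other members averaging 5 CPM or more, Hoxa9, Hoxb9 and Hoxd8 were also highest in tip 1. Hoxd10 and Hoxd11 were highest in tip 2, and Hoxd13 in duct 2.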

How the data were processed

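RNA of sorted basal cells from tips (2 libraries) and ducts (2 libraries) was isolated on RNeasy micro columns and prepared with the Ovation SoLo kit, per the labels' protocols. STAR, HTSeq and build GRCm38 (mm10) are named in the submitters' processing notes. Tool versions, strand setting and annotation release were not given in the sources used here. Per gene, the signal deposited by the authors is a count of reads scaled to a common total (20008326 to 20011820 per library) and rounded up, as found from the values. Dividing by the worth of 1 read gave whole reads within 0.1 read for 100.0% of values, and scaling these reads back gave at least 99.87% of the deposited values. Library pairs differed by more than sampling noise, with chi-square over its degrees of freedom at 6.88 for tips and 20.8 for ducts.

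CPM is the deposited value over 20. On log2(CPM + 1), limma 3.58.1 (R 4.3.3, trended variance, robust, 2-sided) tested the 17865 genes whose mean reached 1 CPM, with Benjamini-Hochberg adjustment over all of them at 0.05. This scale understates changes of low genes. edgeR 4.0.16 and DESeq2 1.42.0 on recovered reads, TMM and median-ratio scaling, other totals, pseudocounts and filters, a block for the title number, and leaving out each library were alternatives. Steps were tested on simulated reads. Read ratios carry exact 95% binomial intervals. Gene coordinates and exon lengths are from GENCODE M21 (GRCm38), matched by Ensembl identifier. Values are printed for members averaging 5 CPM or more, for members whose groups did not overlap with at least 3 reads in the higher group, and for up to 4 genes of each list by smallest p among those that did not overlap. Some genes this rule names are not reported here. Other genes named (Ezh2, Hoxa3, Hoxb1, Hoxb2, the Hoxc genes, Hoxa5, Hoxb3, Hoxb4, Hoxd4, Hoxd12, Hoxaas3, Hibadh) were chosen after their values were seen. The members and gene lists were chosen with earlier results of these data known. Markers of smooth muscle, endothelial, immune and neural cells, also listed, summed to 788 to 3130, 43.6 to 361, 102 to 243 and 45.4 to 296 CPM over the libraries.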

Additional observations from a re-analysis of the deposited data

How the results depend on the processing

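Of 282 values of the 21 tested Hox genes under alternatives, 269 stayed as they were in direction and call, 11 reversed and 2 newly passed. Both that passed did so without duct 1: Hoxa7 (log2 fold 3.07) and Hoxb13 (1.91). The lone library of a group was then assumed to vary like the other group. With the block or another filter, log2 folds repeat those of the main fit by design, so only the call could change. Reversed log2 folds were those of Hoxa5 (-0.0096 with TMM, -0.039 with median-ratio scaling, -0.017 in edgeR, -0.054 in DESeq2 and -0.027 without duct 2), Hoxb4 (0.11 without tip 1 and 0.60 without duct 2), Hoxc8 (-0.60 without tip 1 and -0.012 without duct 2), Hoxd12 (-0.39 without tip 2) and Hoxd13 (0.031 without duct 2). Leaving out 1 library at a time, log2 folds ran from -0.027 to 0.33 for Hoxa5, -0.70 to 0.60 for Hoxb4, -0.60 to 1.78 for Hoxc8, -0.39 to 2.02 for Hoxd12, 1.23 to 3.07 for Hoxa7, 0.93 to 2.29 for Hoxb13 and -0.072 to 0.031 for Hoxd13. The number of Hox genes higher in both tip libraries was 8 of the 9 left at a mean of 5 CPM or more (32.6% of all genes then tested), where fewer genes were tested. It was 16 to 18 when a library was left out, a step that can only keep or raise counts without overlap. The number lower was 1 with TMM, median-ratio scaling, edgeR and DESeq2 (Hoxd13, beside 18.0% of all genes with TMM and 19.4% with median-ratio scaling), 1 without a filter (Hoxc10, beside 10.2%), and 0 to 3 when a library was left out. Leaving out a library gave 0 to 2 called Hox genes. Over all genes, limma called 94 without a filter, DESeq2 called 2, and leaving out a library gave 0 to 904, with 673 without duct 1 and 904 without duct 2. Except where stated, the cause was not tested.

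With the title number as a replicate block, limma called 0 genes and 0 Hox genes. The count of 15 Hox genes higher in both tip libraries uses the same values and cannot change with a block. The labels do not say that the numbers pair the libraries. Deviations of same-numbered libraries correlated at 0.15 across 17865 genes, which are not independent. Counting error limits genes with few reads, such as the 18 with 6 or fewer.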
